A study of Mus musculus with 2 samples.

Results

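The C/D box small nucleolar RNAs with a Snord symbol were described in small RNA libraries of primary murine fibroblasts. They are all entries of the Ensembl noncoding RNA table whose transcript carries a mouse gene symbol that starts with Snord, 68 of 1596 entries. Of these, 67 are listed as snoRNA and 1, Snord43, is listed as microRNA. GENCODE M21 annotates 99 Snord genes on GRCm38, and the other 31, among them 17 copies of Snord116, were not analysed here.

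The fibroblasts were grown from ear clippings of C57BL/6 mice (C57BL/6-J in the study's methods) of about 3 weeks of age and were arrested in G1 with KN-93, an inhibitor of CaMK-II, at 10 μM for 48 h. AF25-low cells then received GM-AF25, a gapmer that inhibits the C/D box snoRNA AF357425, at 500 nM for 24 h. AF25-high cells received 3GA-AF25, an antisense oligonucleotide of the 3GA type used to overexpress AF357425, at 200 nM for 24 h. Each condition is 1 library, so the level of AF357425, the chemistry of the oligonucleotide and its dose cannot be told apart, and no library with a control oligonucleotide was used here.

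C/D box snoRNAs are named after 2 short motifs, the C box near the 5′ end and the D box near the 3′ end, which are bound by a core of fibrillarin, Nop56, Nop58 and Snu13. In most of them the stretch upstream of the D box or of an internal D′ box pairs with ribosomal RNA and sets the nucleotide that fibrillarin methylates on its ribose. A few take part in cleavage of the ribosomal RNA precursor, instead or as well, and some have no known target. In vertebrates most are cut out of introns of genes for ribosomal and nucleolar proteins or of noncoding host genes. The roles given for single genes below are those known for the human gene of the same number.

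Reads were counted on each transcript and expressed as RPM, which sets them against a total per library. Pairs of read numbers name AF25-high first, and ratios divide the RPM of AF25-high by that of AF25-low cells. The 95% interval beside a ratio (exact, Clopper-Pearson) covers only the error of counting. It says nothing of the spread between cultures, and no test between the conditions was possible. The library totals were similar, 28856715 (AF25-high) and 29103700 (AF25-low) reads. They were derived from the RPM of the authors and are not a direct count of sequenced reads. Other scalings of the same reads turn the direction of ratios from 0.710 to 1.15, so members in that range are given as values. Reads of a small RNA library can be fragments of a snoRNA, and their lengths and positions were not analysed here. More cells that express a gene and more RNA per cell cannot be told apart. Of 7 mesenchymal microRNA markers 3 had an entry used here, Mir143 at 2085 and 2112 reads, Mir145a at 102 and 60, and Mir21a at 237 and 285. Of 6 epithelial markers Mir200a had an entry, at 6 and 0 reads, and no neuronal, muscle, endothelial or blood marker had one. The other mesenchymal markers had no entry used here either, so a missing entry is no measure of the cells present. The paper reports that most reads of both libraries mapped to microRNAs. The whole Ensembl table held only 375931 (AF25-high) and 533803 (AF25-low) reads, so these marker reads are not the full levels of the microRNAs.

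Every Snord gene had reads in both libraries. Together they came to 36079 AF25-high reads (1250 RPM) and 48126 AF25-low reads (1654 RPM), which is 0.125% and 0.165% of each library total. The ratio of the sums was 0.756 (95% interval 0.746 to 0.767) and became 1.06 when each library was scaled to its total in the Ensembl table (the table total). Snord43 alone held 48.9% (AF25-high) and 57.5% (AF25-low) of the Snord reads. Without Snord43 the ratio of the sums was 0.909 (0.891 to 0.928), and without Snord43, Snord104 and Snord118 it was 1.06 (1.03 to 1.09). The sum therefore followed its most abundant members, and the plot of RPM in both libraries shows how far these stand above the rest.

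**Figure D1:**
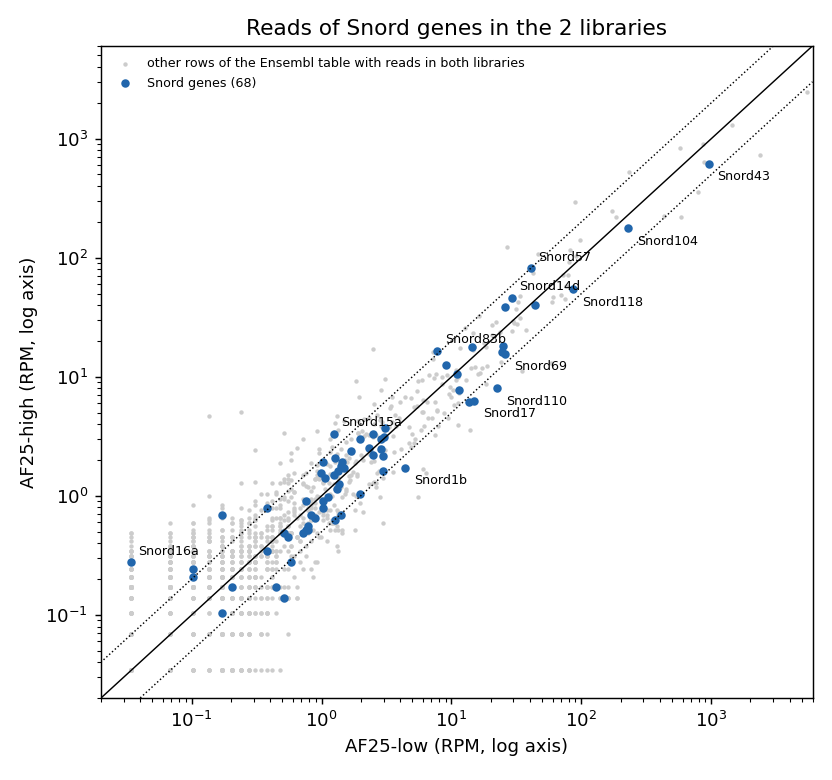
RPM of each entry of the Ensembl table in AF25-low cells (x axis, log scale) and AF25-high cells (y axis, log scale), with the 68 Snord genes in blue and the other entries with reads in both libraries in gray. The solid line marks equal RPM and the dotted lines 2-fold differences. Snord43, at 951 RPM (AF25-low) and 612 RPM (AF25-high), is the highest of the Snord genes, and a few other entries have more reads.

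Levels spanned a wide range. In the library where it was higher, 7 members had at least 1000 reads, 29 had at least 50 and fewer than 1000, 21 had 20 to 49, and 11 had fewer than 20. The 12 most abundant members held 89.9% (AF25-high) and 91.9% (AF25-low) of the Snord reads.

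The most abundant was Snord43, a guide of 18S rRNA methylation in intron 1 of the ribosomal protein gene Rpl3 (chr15:80082847-80082954, minus strand). It had 17652 AF25-high and 27685 AF25-low reads, a ratio of 0.643 (0.631 to 0.655). Snord104, a guide of 28S rRNA that lies in no host gene of the annotation (chr11:106500993-106501062, plus strand), had 5077 and 6692 reads, a ratio of 0.765 (0.738 to 0.794) that is above 1 when scaled to the table total. Snord118, also known as U8, is transcribed from its own gene (chr11:69073427-69073561, plus strand) and acts in processing of the 5.8S and 28S rRNA precursor. It had 1560 AF25-high and 2529 AF25-low reads, a ratio of 0.622 (0.584 to 0.663). These 3 were lower in AF25-high cells by the library totals. Snord57, a guide of 18S rRNA in intron 10 of Nop56 (chr2:130278016-130278087, plus strand), went the other way, with 2355 AF25-high and 1194 AF25-low reads, a ratio of 1.99 (1.85 to 2.13). Their transcripts are shown because they carry most of the Snord reads, 5′ to 3′ as annotated by GENCODE on GRCm38, with an exact C box (TGATGA) and the D box (the CTGA nearest the 3′ end) in capitals. Snord57 has no exact TGATGA, and its D box lies close to the 3′ end as in the others.
Snord43: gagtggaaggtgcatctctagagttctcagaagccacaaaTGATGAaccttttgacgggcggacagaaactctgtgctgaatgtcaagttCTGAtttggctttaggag
Snord104: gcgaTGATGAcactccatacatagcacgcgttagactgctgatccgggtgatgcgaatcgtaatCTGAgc
Snord118: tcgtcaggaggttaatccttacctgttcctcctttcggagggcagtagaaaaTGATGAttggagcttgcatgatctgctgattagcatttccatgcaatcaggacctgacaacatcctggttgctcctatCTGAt
Snord57: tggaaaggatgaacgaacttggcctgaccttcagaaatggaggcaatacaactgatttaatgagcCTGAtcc

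Of the next 8 members by abundance, 3 were higher in AF25-high cells under every scaling. Snord14d, a form of U14 in intron 6 of the chaperone gene Hspa8, had 1337 and 847 reads, a ratio of 1.59 (1.46 to 1.74). Snord4a, in intron 2 of Rpl23a, had 1123 and 746 reads, a ratio of 1.52 (1.38 to 1.67). Snord2, in intron 3 of the translation factor gene Eif4a2, had 1149 and 1269 reads, a ratio of 0.913 (0.842 to 0.990). It was therefore among the members whose direction depends on the scaling, as was Snord123, in the only intron of Snhg18, where 526 and 729 reads gave a ratio of 0.728 (0.649 to 0.815). Snord69, a guide of 28S rRNA in intron 9 of the nucleostemin gene Gnl3, had 449 and 752 reads, a ratio of 0.602 (0.535 to 0.678). Snord66, a guide of 18S rRNA in intron 20 of Eif4g1, had 467 and 709 reads, a ratio of 0.664 (0.590 to 0.748). Both were lower under every scaling. The last of the 3 higher ones was Snord49a, a guide of 28S rRNA, which had 516 and 420 reads, a ratio of 1.24 (1.09 to 1.41). The last of the 12, Snord110, had the lowest ratio and is described with those.

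Members were compared one by one where the higher library held 20 reads or more, which left 57. By the library totals 26 were higher and 31 lower in AF25-high cells (45.6% higher, against 52.5% of the 436 entries of the table with as many reads). Scaled to the total of the table, 40 were higher and 17 lower, and 11 were at least 2-fold higher and 0 at least 2-fold lower. The share of all entries was not counted under that scaling, which raises every ratio alike. The median log2 ratio of the members was -0.14, against 0.06 over all 436 entries, and 0.36 against 0.55 under that scaling. By the library totals a ratio of at least 2 was found for 4 members (7.02%, against a background of 16.1%), Snord88a, Snord15a, Snord83b and Snord92. A ratio of at most 0.5 was found for 6 members (10.5%, against 12.2%), Snord110, Snord1b, Snord17, Snord59a, Snord111 and Snord8. Snord88a and Snord92 reached 20 reads only in AF25-high cells and Snord111 only in AF25-low cells, so the minimum itself favors these calls. The background was taken at the same minimum. The counting interval lay above 1 for 11 members (19.3%, against 29.1%), below 1 for 16 (28.1%, against 26.6%) and held 1 for 30. The members were thus not called more often than the table as a whole by the 2-fold rule in either direction, and the plot of the single ratios shows them on both sides of 1.

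**Figure D2:**
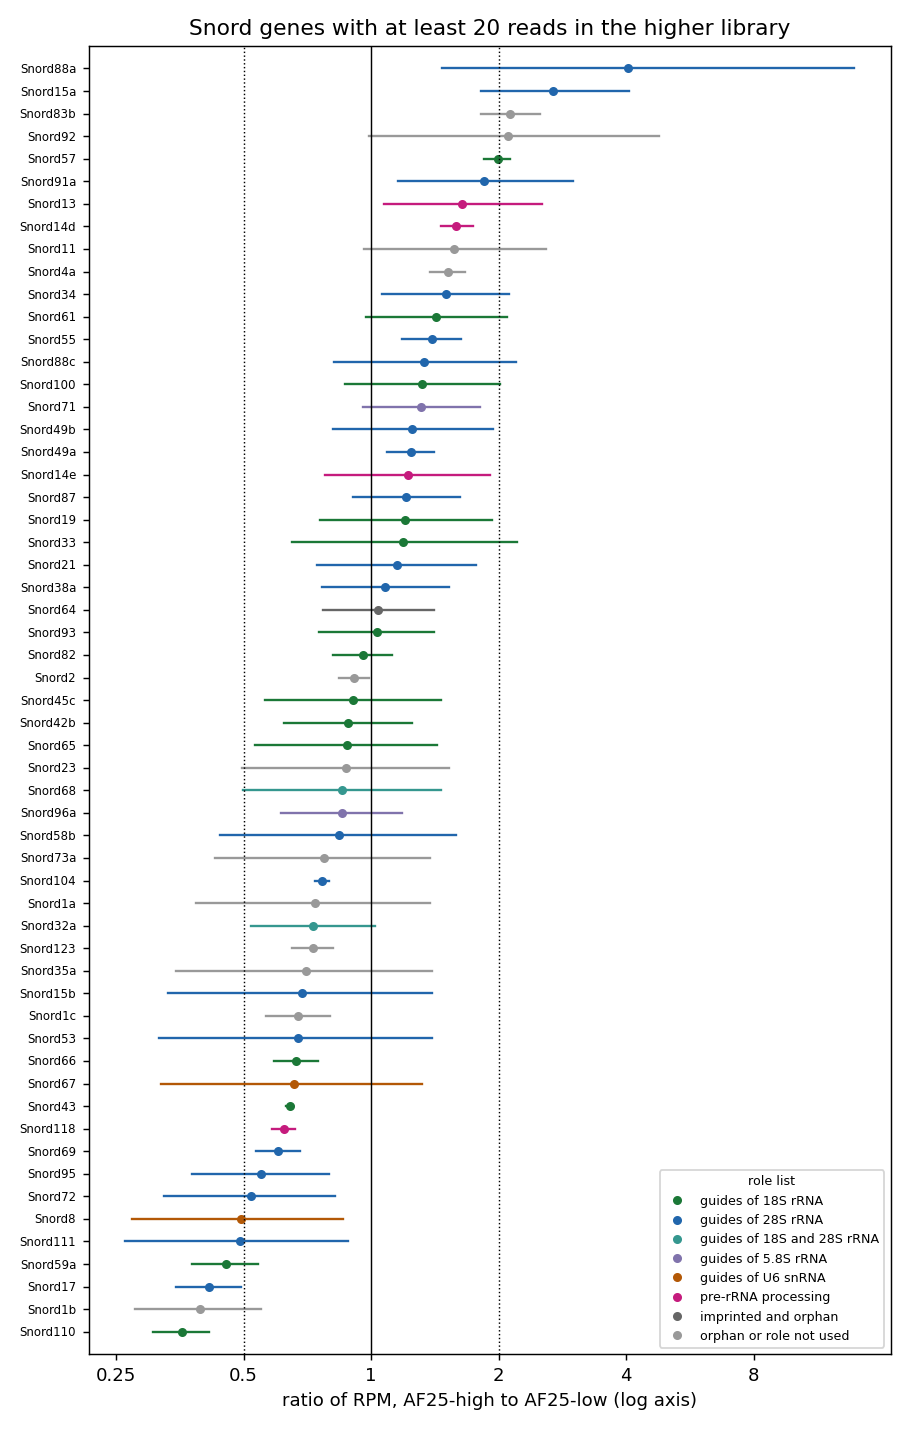
RPM of AF25-high over AF25-low cells (x axis, log scale) for the 57 Snord genes that reach 20 reads in either library, ordered by ratio and colored by role list. Points are ratios, bars are exact 95% intervals of counting error, and dotted lines mark 2-fold differences. Of the bars, 11 lie above 1 and 16 below 1.

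Among members with at least 50 reads, the ratio was highest for Snord15a, a guide of 28S rRNA in intron 1 of Rps3 (chr7:99482785-99482932, minus strand). It had 96 AF25-high and 36 AF25-low reads, a ratio of 2.69 (1.82 to 4.06). Snord83b, in intron 7 of Rpl3 (chr15:80078498-80078591, minus strand), is placed in no role list and had 480 and 227 reads, a ratio of 2.13 (1.82 to 2.51). Snord57, described above, came next. Snord91a, a guide of 28S rRNA in intron 10 of the ribosome assembly gene Tsr1 (chr11:74905424-74905516, plus strand), had 55 and 30 reads, a ratio of 1.85 (1.16 to 2.99). The other members of the 8 highest were Snord13, Snord14d, Snord4a and Snord34, with ratios from 1.50 to 1.64 and intervals above 1. Below 50 reads, Snord88a, in intron 4 of 2410002F23Rik, had 20 and 5 reads, a ratio of 4.03 (1.47 to 13.8), and Snord92, in intron 4 of Wdr43, had 23 and 11, a ratio of 2.11 (0.988 to 4.79). The transcripts of Snord15a, Snord83b and Snord91a are shown because, with Snord57 above, they have the 4 highest ratios at 50 reads or more, and Snord91a holds no exact TGATGA.
Snord15a: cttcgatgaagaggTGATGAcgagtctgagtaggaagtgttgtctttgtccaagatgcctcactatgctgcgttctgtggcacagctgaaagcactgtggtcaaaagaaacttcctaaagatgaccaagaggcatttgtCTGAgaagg
Snord83b: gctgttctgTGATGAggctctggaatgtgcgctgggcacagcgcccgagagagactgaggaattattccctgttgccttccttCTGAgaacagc
Snord91a: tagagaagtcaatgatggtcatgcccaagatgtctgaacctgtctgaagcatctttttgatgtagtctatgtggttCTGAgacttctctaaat

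The lowest ratio of all 57 was that of Snord110, a guide of 18S rRNA in intron 3 of Nop56 (chr2:130275506-130275573, plus strand). It had 231 AF25-high and 653 AF25-low reads, a ratio of 0.357 (0.306 to 0.415). Snord1b, in intron 4 of the noncoding host 1810032O08Rik (chr11:116674148-116674222, plus strand), had 50 and 128 reads, a ratio of 0.394 (0.278 to 0.550). Its sequence is nearly that of Snord1c, so its reads are uncertain. Snord17, a guide of 28S rRNA and at 238 nt the longest member, lies in intron 2 of the sorting nexin gene Snx5 (chr2:144265979-144266216, minus strand) and had 180 and 438 reads, a ratio of 0.414 (0.346 to 0.494). Snord59a, a guide of 18S rRNA in intron 2 of the ATP synthase gene Atp5b (chr10:128084143-128084216, plus strand), had 179 and 398 reads, a ratio of 0.454 (0.378 to 0.542). None of these 4 was turned by another scaling. Snord72, in intron 3 of Rpl37, and Snord95, in intron 3 of Rack1, both guides of 28S rRNA, followed with ratios of 0.522 (0.324 to 0.824) and 0.551 (0.378 to 0.795). Below 50 reads, Snord111, a guide of 28S rRNA in intron 6 of the splicing factor gene Sf3b3, had 18 and 37 reads, a ratio of 0.491 (0.263 to 0.884). Snord8, a guide of U6 snRNA in intron 27 of the chromatin remodeler gene Chd8, had 20 and 41. The 4 transcripts with the lowest ratios are shown, and each has an exact D box near its 3′ end.
Snord110: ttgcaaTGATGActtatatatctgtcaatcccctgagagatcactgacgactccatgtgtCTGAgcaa
Snord1b: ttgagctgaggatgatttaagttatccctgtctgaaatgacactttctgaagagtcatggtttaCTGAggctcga
Snord17: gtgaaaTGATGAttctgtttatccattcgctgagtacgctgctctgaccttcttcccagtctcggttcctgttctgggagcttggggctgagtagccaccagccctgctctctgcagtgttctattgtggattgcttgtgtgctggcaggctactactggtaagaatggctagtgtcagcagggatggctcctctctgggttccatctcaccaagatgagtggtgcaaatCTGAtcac
Snord59a: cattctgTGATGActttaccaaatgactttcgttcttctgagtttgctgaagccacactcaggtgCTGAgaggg

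Guides of 18S rRNA, 19 members of which 14 had at least 20 reads, lay on both sides of 1. They summed to 21637 AF25-high and 31397 AF25-low reads, a ratio of 0.695 (0.683 to 0.707), and to 3985 and 3712 without Snord43, a ratio of 1.08 (1.04 to 1.13). Leaving out the most abundant member of a list was chosen after its values were seen. The Snord14 genes (U14), which also guide methylation of 18S rRNA, are listed under processing of the rRNA precursor and are not in these sums. Of the 14, 6 were higher and 8 lower in AF25-high cells by the library totals, and their median log2 ratio of -0.10 became 0.39 when scaled to the table total. Only Snord57 had an interval above 1, and Snord43, Snord66, Snord59a and Snord110 had intervals below 1. Over all 436 entries the interval lay above 1 for 29.1% and below 1 for 26.6%. Snord82, in intron 5 of the nucleolin gene Ncl, had 304 and 321 reads, a ratio of 0.955 (0.814 to 1.12). Snord61, in intron 2 of the X-linked gene Rbmx, had 69 and 49 reads, a ratio of 1.42 (0.971 to 2.09), and Snord100, in intron 4 of Rps12, had 55 and 42, a ratio of 1.32 (0.868 to 2.02). For these 3 and for Snord93, Snord19, Snord33, Snord42b, Snord45c and Snord65, which had ratios from 0.876 to 1.20, the interval held 1.

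Guides of 28S rRNA formed the largest list, with 20 of 21 members at 20 reads or more. The list had 7319 AF25-high and 9230 AF25-low reads, a ratio of 0.800 (0.775 to 0.825), and without Snord104 the ratio was 0.891 (0.841 to 0.943). By the library totals 11 were higher and 9 lower, with a median log2 ratio of 0.16 that became -0.05 under the median of ratios. Of the 20, 6 had intervals above 1, Snord88a, Snord15a, Snord91a, Snord34, Snord55 and Snord49a. As many, Snord104, Snord69, Snord95, Snord72, Snord111 and Snord17, had intervals below 1. Snord88a reached 20 reads only in AF25-high cells and Snord111 only in AF25-low cells, so the minimum itself favors their calls. Over all 436 entries the share was 29.1% above 1 and 26.6% below 1, so the list lay near that background. Snord55 had 362 and 263 reads, a ratio of 1.39 (1.18 to 1.63). Snord87, in intron 2 of the noncoding host Snhg6, had 107 and 89, a ratio of 1.21 (0.907 to 1.62). Snord21, Snord38a, Snord49b, Snord88c, Snord15b, Snord53 and Snord58b had at most 73 reads in a library, with ratios from 0.672 to 1.33 and intervals that held 1.

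Smaller lists had few members with enough reads. Snord32a, in intron 2 of Rpl13a, and Snord68, in intron 3 of Rpl13, which both guide 18S and 28S rRNA, had ratios of 0.730 (0.520 to 1.02) and 0.856 (0.498 to 1.46). The guides of 5.8S rRNA were Snord71, in intron 12 of the adaptin gene Ap1g1, which had 95 and 73 reads (a ratio of 1.31, 0.957 to 1.81), and Snord96a, in intron 2 of Rack1, which had 71 and 84 reads (0.852, 0.613 to 1.18). Among the guides of U6 snRNA, which act on a spliceosomal RNA, Snord8 had a ratio of 0.492 (0.273 to 0.859) and Snord67, in intron 31 of Ckap5, had 15 and 23 reads, a ratio of 0.658 (0.319 to 1.32). Snord7 had only 7 and 3 reads. Snord64, an orphan of the imprinted Prader-Willi locus, had 91 and 88 reads, a ratio of 1.04 (0.769 to 1.41). The 15 members without a role list are orphans or have a role that was not used here, so the lists of guides above are not complete. They included Snord2, Snord4a, Snord123, Snord83b and the Snord1 genes, and 4 of the 12 with at least 20 reads were higher by the library totals. Among them, Snord11, in intron 9 of Nop58, had 45 and 29 reads, a ratio of 1.57 (0.960 to 2.59). Snord23, in intron 10 of Nop53, had 26 and 30, and Snord73a, in intron 4 of Rps3a1, 23 and 30, and the intervals of all 3 held 1.

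The snoRNAs listed under processing of the rRNA precursor differed among themselves. Snord118, which is required for the large subunit rRNAs, was at 54.1 RPM (AF25-high) and 86.9 RPM (AF25-low). Snord13 (U13), which acts on 18S rRNA and has its own gene, had 60 and 37 reads, a ratio of 1.64 (1.07 to 2.53). Of the U14 genes, Snord14d was higher at 46.3 and 29.1 RPM, Snord14e was at 47 and 39 reads (a ratio of 1.22, 0.778 to 1.91), and Snord14a had 5 and 6 reads. Snord118 thus lay on the other side of 1 than Snord13 and Snord14d under every scaling, and without Snord118 the ratio of the list went from 0.878 (0.835 to 0.922) to 1.57 (1.45 to 1.71). Snord14d and Snord14e lie in introns 6 and 8 of Hspa8 and are shown because they share a host and a function. They are identical at 79.6% of aligned positions, and Snord14d shares 49 of its 69 stretches of 18 nt with Snord14c, which was not analysed here.
Snord14d: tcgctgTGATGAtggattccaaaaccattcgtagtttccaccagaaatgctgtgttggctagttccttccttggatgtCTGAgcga
Snord14e: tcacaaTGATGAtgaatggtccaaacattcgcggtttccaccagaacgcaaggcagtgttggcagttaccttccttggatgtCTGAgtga

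Host genes were then compared, since members of 1 host are cut from 1 precursor. In all, 65 members lie in introns of 45 host genes, and Snord104, Snord118 and Snord13 lie in none. The 22 members in ribosomal protein genes had a ratio of sums of 0.692 (0.679 to 0.704), which was 1.40 (1.32 to 1.49) without Snord43, and 9 of 18 with at least 20 reads were higher. The 32 members in other protein-coding genes had 1.02 (0.987 to 1.05), or 0.833 (0.802 to 0.864) without Snord57, with 12 of 27 higher. The 11 members in noncoding hosts had 0.863 (0.807 to 0.922), or 0.947 (0.871 to 1.03) without Snord123, with 4 of 9 higher. Each of these sums therefore leaned on its most abundant member. A group put together after the values were seen, of 11 members in genes for nucleolar proteins (Nop56, Nop58, Nop53, Ncl, Gnl3, Tsr1 and Wdr43), had 5 higher and 5 lower of the 10 with at least 20 reads.

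Pairs of members within 1 host were set against each other. The ratio of one member was divided by that of the other, which removes the scaling of the libraries, and this comparison was chosen after the values were seen. Of 22 pairs in 13 hosts with at least 20 reads for each member, 12 had members on opposite sides of 1 by the library totals. No background was counted for this, and with 26 members higher and 31 lower many pairs of different hosts also lie on opposite sides. Hosts with more than 2 members gave several pairs that share members, so the pairs are not independent. Of the 22 pairs, 8 were at least 2-fold apart and 8 had an interval above 1. This share, 36.4%, can be read against 32.2% of 1574 pairs of members from different hosts that were at least 2-fold apart, and against 44.3% of them with an interval above 1. The share of pairs 2-fold apart was thus close to its background, and no test of the difference was made. The minimum of 20 reads can itself favor a gap where a member reached it in only 1 library. Among the pairs 2-fold apart this holds for Snord15b, Snord92, Snord53, Snord88a and Snord35a. The same minimum held for pairs of different hosts. Reads of Snord88a and Snord88c, and of Snord1b and Snord1c, are also divided with uncertainty, since their sequences are alike.

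Among pairs with 20 reads for each member, the widest gap was in Nop56, the gene of a core protein of C/D box snoRNAs. Snord57, in intron 10, and Snord110, in intron 3, lie 2510 bp apart, and the ratio of Snord57 was 5.57 times (4.71 to 6.61) that of Snord110. In Rps3, Snord15a at 96 and 36 reads stood against Snord15b at 15 and 22, a ratio of ratios of 3.88 (1.71 to 9.02). In Rpl3, the ratio of Snord83b was 3.32 times (2.82 to 3.91) that of Snord43. In Wdr43, which encodes a factor of the small subunit processome, Snord92 had 23 and 11 reads and Snord53 14 and 21, 3.08 times apart (1.05 to 9.48). In each of these 4 hosts one member was above 1 and the other below 1 by the library totals. Snord92 reached 20 reads only in AF25-high cells, and Snord53 and Snord15b only in AF25-low cells. The minimum itself thus favors a gap in Rps3 and Wdr43, and these gaps are given as values only. In Gnl3, Snord19 had 43 and 36 reads, and its ratio was 2.00 times (1.23 to 3.26) that of Snord69. In Rpl23a, Snord4a was 1.72 times (1.19 to 2.47) apart from Snord42b, which had 64 and 73 reads. Below that minimum, Snord4a was 5.64 times (1.79 to 23.4) apart from Snord42a of the same host. Other hosts held members with like ratios. Snord49b and Snord49a of 2410006H16Rik, 51 and 41 against 516 and 420 reads, were 1.01 times apart (0.644 to 1.60), and Snord14d and Snord14e of Hspa8 were 1.31 times apart (0.826 to 2.07). These intervals leave room for differences within their bounds. The plot of ratios by host shows both kinds side by side.

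**Figure D3:**
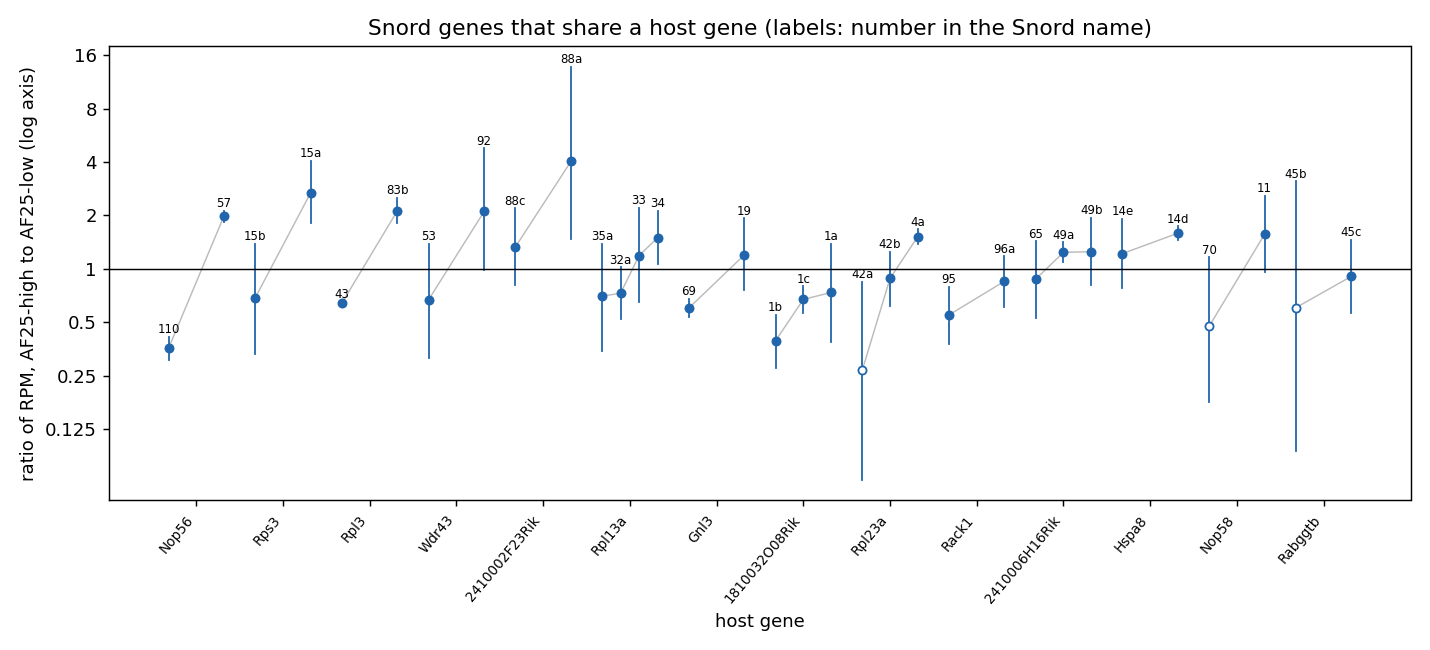
RPM of AF25-high over AF25-low cells (y axis, log scale) for Snord genes that share a host gene (x axis, 14 of 15 such hosts), with each point labeled by the number in its Snord name. Bars are exact 95% intervals of counting error, and open points have fewer than 20 reads in both libraries. Snord57 and Snord110 of Nop56 lie at 1.99 and 0.357, and Snord83b and Snord43 of Rpl3 at 2.13 and 0.643.

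Of the hosts with at least 3 members at 20 reads, Rpl13a, a ribosomal protein gene, held 4. Snord34 had 86 and 58 reads, a ratio of 1.50 (1.06 to 2.12), Snord33 26 and 22, Snord32a 63 and 87, and Snord35a 16 and 23. Snord34 was 2.04 times (1.25 to 3.35) apart from Snord32a, while the 4 together had 191 and 190 reads, a ratio of 1.01 (0.825 to 1.25). The noncoding host 2410006H16Rik held Snord49b, Snord49a and Snord65, and Snord65 had 33 and 38 reads. The host transcript itself had 25 and 18 reads, a ratio of 1.40 (0.734 to 2.73), beside 1.21 (1.08 to 1.37) for its 3 Snord genes together. Of the other hosts with an entry of their own, Snhg18 had 7 and 3 reads, a ratio of 2.35 (0.537 to 14.1), beside 0.728 for its Snord123, and an Snhg6 transcript had 11 and 8, a ratio of 1.39 (0.508 to 3.97), beside 1.21 for its Snord87. The noncoding host 1810032O08Rik held the 3 Snord1 genes, and all 3 had ratios below 1 by the library totals. Snord1c had 223 and 334 reads, a ratio of 0.673 (0.566 to 0.800), and Snord1a 19 and 26, a ratio of 0.737 (0.386 to 1.38).

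The Snord1 genes are shown because the likeness of their sequences limits what their reads can say. Snord1b, printed above, and Snord1c are identical at 97.4% of aligned positions and share 40 stretches of 18 nt, whereas Snord1a has no such stretch in common with them. Snord1c also shares 56 of its 59 stretches with Gm24253, which has no entry used here. The authors gave a read that fits several loci to the most highly expressed one, so the split between Snord1b and Snord1c is uncertain. The same holds for Snord88a, with 20 and 5 reads, and Snord88c, with 41 and 31, which lie 283 bp apart in 2410002F23Rik and are identical at 94.4% of aligned positions. Snord15a and Snord15b, at 64.5% identity with 4 shared stretches, are further apart in sequence, and so are the 4 members of Rpl13a, among which no stretch is shared. Of the 68 members, 23 share a stretch of 18 nt with another small RNA gene or table entry, and 6 share over 50% of theirs. In addition, 28 members overlap an exon of another transcript on the same strand, and how the reads there were divided was not tested. Snord93 shares 36 of 54 with Mir3096, which had 9 and 10 reads. The transcripts of Snord1c, Snord1a and, to set beside Snord15a, Snord15b follow.
Snord1c: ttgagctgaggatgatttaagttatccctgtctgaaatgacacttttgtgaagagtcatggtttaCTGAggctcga
Snord1a: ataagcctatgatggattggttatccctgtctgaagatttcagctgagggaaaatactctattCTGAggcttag
Snord15b: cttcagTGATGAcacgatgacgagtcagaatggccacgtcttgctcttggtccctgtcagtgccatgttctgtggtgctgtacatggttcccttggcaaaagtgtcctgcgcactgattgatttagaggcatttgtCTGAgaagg

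The label of the members was checked against their sequences. An exact CTGA in the last 20 nt was found in 66 of 68 (97.1%), an exact TGATGA in the first 60 nt in 46 (67.6%), and both in 44 (64.7%). The window for TGATGA was widened after Snord43 and Snord118 had been missed by a shorter one. Only the sense strand was searched, and a TGATGA that follows a C overlaps a CTGA. Among 24 H/ACA box snoRNAs (Snora), which carry other boxes, the shares were 0% for TGATGA and 12.5% for CTGA. Among all 142 snoRNA or scaRNA entries without a Snord symbol they were 26.8% and 45.8%, with both in 24.6%, and among microRNA entries other than Snord43 they were 2.14% and 7.49%. Members were 64 to 238 nt long, with a median of 80.5 nt. Over the 57 members with at least 20 reads, the log2 ratio had a Pearson r of -0.11 with length, -0.14 with the mean log2 reads and 0.24 with GC content, given as descriptions over genes of the same 2 libraries. The Spearman rho was 0.05, -0.05 and 0.12, so these relations were weak.

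The 11 members under 20 reads had 5 to 17 reads in their higher library. Snord16a, a guide of 18S rRNA in intron 3 of Rpl4, had 8 and 1 reads, a ratio of 8.07 with an interval from 1.08 to 358.0. Snord42a, in intron 3 of Rpl23a, had 4 and 15 reads, a ratio of 0.269 (0.065 to 0.844). The interval of the other 9, Snord7, Snord90, Snord98, Snord89, Snord14a, Snord37, Snord45b, Snord70 and Snord35b, held 1, and a difference was not detectable at this depth. Just inside the minimum lay Snord88a (20 and 5 reads) and Snord53 (14 and 21), and just outside it Snord70 (8 and 17) and Snord37 (13 and 16).

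Other RNAs of the pathway were described at the same minimum. The 13 Snora genes had a median log2 ratio of -0.11, with 6 higher and 7 lower in AF25-high cells. The 3 Scarna genes, which act in Cajal bodies, had a median of 0.67 but a ratio of sums of 0.853 (0.684 to 1.06), and the 2 entries of U3 had 0.03. The 67 other snoRNA or scaRNA entries, outside these sets and the Snord genes, had a median of 0.09, with 36 higher and 31 lower. Of these, 6 were at least 2-fold higher (8.96%, against 16.1% of all 436 entries) and 9 at least 2-fold lower (13.4%, against 12.2%). The noncoding hosts Gas5 and Snhg, with 17 entries, had a median of 0.12 and 11 higher. No test of the differences between these sets was made.

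The share of members on each side of 1 depended on the scaling, which shifts every member alike. Relative to the library totals, the log2 ratios move by -0.20 under the median of ratios, by -0.18 under the trimmed mean of M values (TMM), by 0.49 when scaled to the table total and by 0.01 when scaled to microRNA reads. The median of ratios gave 22 higher and 35 lower members, TMM 23 and 34, and microRNA reads 26 and 31. Over all 436 entries the median log2 ratio was -0.15, -0.12 and 0.07 under these, in that order, and 0.55 under the table total. Shares of all entries were not counted for these scalings or for the counts that follow. Of the 57 members, 22 were higher under every scaling and 17 were lower under every scaling, while 18 were turned by at least 1. Snord57, Snord14d, Snord4a, Snord15a and Snord83b were among the 22, and Snord43, Snord118, Snord69, Snord66 and Snord110 among the 17. The plot of directions by scaling shows that the table total stands apart from the other 4.

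**Figure D4:**
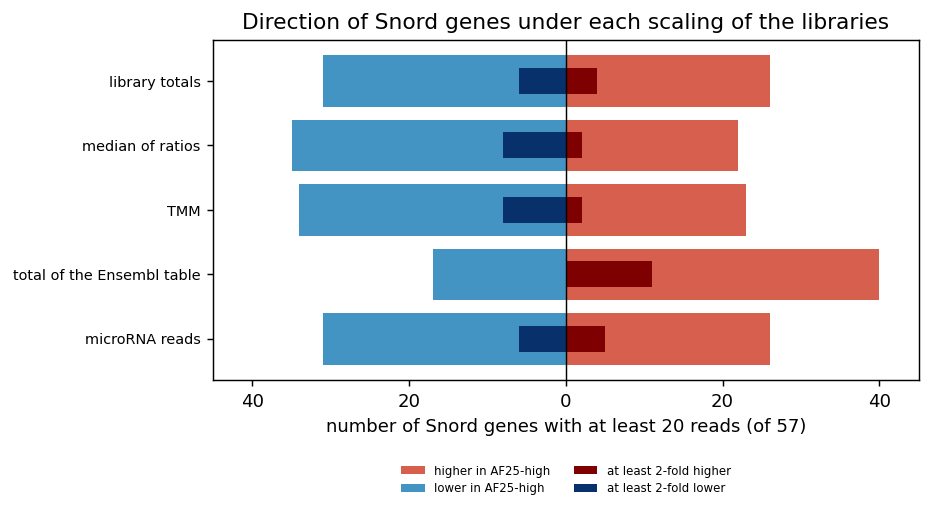
Number of Snord genes (x axis, of 57 with at least 20 reads) that are lower (left, blue) or higher (right, red) in AF25-high cells under each scaling of the libraries (y axis), with the genes at least 2-fold apart in the darker inner bars. Library totals give 26 higher and 31 lower, and the total of the Ensembl table gives 40 and 17.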

How the data were processed

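Small RNA of both libraries was sequenced on the DNBseq platform and processed by the authors with sRNAbench and Bowtie on GRCm38 (version not given in the sources used here). Reads were counted by the authors on the sense strand, and a read of several loci went to the most highly expressed one. The deposited signal values are read counts divided by a size factor per library, which equal a median-of-ratios scaling of the table. Columns of fold changes and p-values of the authors' own comparison were not used, and the tRNA table served only to obtain library totals.

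The smallest value above 0 of a column was taken as 1 read. Divided by it, 100% of values came out whole (relative tolerance 1e-06). Library totals were the medians, over 38 anticodons with at least 100 RPM, of tRNA reads divided by the RPM tabulated by the authors. Members that reached 20 reads in either library entered the counts, ratios carry exact 95% intervals, and 0.5 reads were added before medians of log2 ratios. Names, hosts and sequences came from GENCODE M21, which matched 1571 of 1596 identifiers. Genes named are the 12 most abundant, the 8 highest and 8 lowest ratios with at least 50 reads, all members of hosts with at least 3, and members of the role lists. Others were chosen after their values were seen. The name of 1 host gene and the comparison of its members are not reported here. Members and lists were chosen with earlier results of these data known. Alternatives were the scaling, the minimum of 10 or 50 reads, 1 read added, and leaving out abundant members. The intervals, the 2-fold rule and the ratio of ratios were run on simulated reads with known changes and counting error only. The spread between cultures and the division of reads shared between loci were not part of that simulation. Python 3.11.15, scipy 1.17.1, numpy 2.4.6, matplotlib 3.10.9 and pandas 2.3.3 were used, and edgeR 4.0.16 in R 4.3.3 gave the TMM factor only.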

Additional observations from a re-analysis of the deposited data

Results flagged for a closer look

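The RNAcentral table, which entered no comparison above, also holds 11 entries of class snoRNA. They came to 878 AF25-high and 624 AF25-low reads, which is 1.42 times as much per library (95% interval 1.28 to 1.57). The Snord genes of the Ensembl table summed to a ratio of 0.756. That ratio was 0.909 without Snord43, which is listed as microRNA, and 1.06 without the 3 most abundant genes. These entries carry no gene names, so it is not known which of them are C/D box snoRNAs, and the table has no control library. They were singled out because they hold a signal outside the main measurement.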

How the results depend on the processing

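The ratio of the summed Snord reads, 0.756 by the library totals, was 0.656 under the median of ratios, 0.669 under TMM and 1.06 when scaled to the table total. It was 0.909 without Snord43, 0.979 without Snord43 and Snord104 (an alternative chosen after the data were seen) and 1.06 without the 3 most abundant genes. The median log2 ratio, -0.14, was -0.34 under the median of ratios, -0.31 under TMM, 0.36 when scaled to the table total and -0.01 at a minimum of 50 reads. The other alternatives left it within 0.1 of that value. The 4 genes at least 2-fold higher became 2 under the median of ratios, 2 under TMM, 11 when scaled to the table total and 2 at a minimum of 50 reads, and the 6 at least 2-fold lower became 0 when scaled to the table total. They were 8 under the median of ratios and under TMM, 9 at a minimum of 10 reads, and 4 at a minimum of 50 reads or with 1 read added. The share of all entries was not counted under these alternatives. Scaling to microRNA reads moved no member outside its counting interval, against 11 under the median of ratios, 10 under TMM and 25 under the table total. Sums of lists that changed side without their most abundant gene were those of 18S guides (1.08 without Snord43), pre-rRNA processing (1.57 without Snord118), ribosomal protein hosts (1.40 without Snord43) and other protein-coding hosts (0.833 without Snord57). The cause of these moves was not tested beyond the scaling factor or gene each alternative changes. Each condition has 1 library, so no library could be left out. No paired analysis was possible because each condition has 1 library. Members under 20 reads, and pairs with a member near that minimum, are limited by depth.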
